A study of Mus musculus with 7 samples.

Results

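The 32 genes described here take up, activate and oxidise fatty acids, and all 32 were present among the 16272 genes of the deposited matrix. They were taken by name from a list, which was drawn up with earlier results of these data known. By the place of their products, 18 were counted as mitochondrial, 8 as peroxisomal and 6 as belonging to both or to another place. Whole kidneys of 7 healthy C57BL/6 mice aged 4 to 8 weeks were dissociated and profiled by droplet-based sequencing of transcript 3′ ends. Single molecules were counted by unique molecular identifiers (UMIs). By their labels, 4 of the mice were wild type, and Cdh16CremTmG, SclCremTmG and Nphs2CremTmG were 1 mouse each. These 3 lines carry a membrane fluorescence reporter switched by a Cre recombinase named for its driver gene. No treatment was given, and sex is not stated. The number that ends each cell barcode splits the 43745 cells into 7 libraries. Which library came from which mouse is not given in the sources used here, and all 7 were treated as kidneys of the same group.

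Fatty acids are the main fuel of the proximal tubule, which reabsorbs most of the filtrate and makes little use of glucose as a fuel. In mitochondria, an acyl-CoA enters by the carnitine shuttle and is shortened by repeated rounds of dehydrogenation, hydration, a second dehydrogenation and thiolysis. Peroxisomes shorten very long and branched chains first, and hand the products on to mitochondria. Many genes of both routes are targets of the fatty acid receptor Ppara.

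Libraries held 4217169 to 49997616 UMIs, and cells a median of 2327. Of 42757 distinct barcode sequences, 974 occurred in more than 1 library. The authors' cluster numbers 1 to 16 were used as deposited and set against marker genes. Of 8 proximal tubule markers, 7 were highest in cluster 3. All 4 loop of Henle markers were highest in cluster 4, all 4 distal convoluted tubule markers in cluster 5, all 6 principal cell markers in cluster 6 and 4 of 6 intercalated cell markers in cluster 7. Macrophage markers led in cluster 11, and B lymphocyte, T lymphocyte and natural killer markers in clusters 13, 14 and 15. Libraries 3 and 4 stood apart in cluster 3. Of their cells with early or late proximal markers, 60.5% and 64.4% were late, against 2.82% to 37.5% in the other libraries. Levels are given as CPM, counts of a gene scaled to the UMIs that a library holds in a cluster. They count transcript ends and are set side by side for a gene across cells. Where genes are summed, a share of the sum is a share of counted UMIs. How the authors drew the clusters is not given in the sources used here, and the genes tested may have taken part, so a p-value is not read as independent evidence of a difference between cell types.

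Against the mean of the other tubule clusters, 4 to 7, the peroxisomal genes were higher in the proximal tubule-like cells of cluster 3. The mitochondrial genes were divided. Between cluster 3 and the mean of clusters 4 to 7, 19 of 31 tested members were higher and 3 lower by edgeR's quasi-likelihood test at an adjusted p under 0.05. The same test called 60.4% of all 7952 genes tested, with 29.1% higher and 31.4% lower. Thus 61.3% of the members were higher, against 29.1% of all genes, and 9.68% were lower, against 31.4%. All 8 peroxisomal members were higher, 5 of them also by DESeq2, as were 8 of 18 mitochondrial members and 3 of the other 5. The median log2 fold change was 1.22 over the peroxisomal members and 0.22 over the mitochondrial members, against -0.04 over all genes. Size factors by the median ratio of counts moved the median of all genes to -0.30, and the split to 17 higher and 7 lower. DESeq2 gave 16 and 6. Without libraries 3 and 4 the split was 17 and 4. Ppara itself did not pass the filter on low counts in this fit.

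Activation enzymes gave the largest differences. Slc27a2, a fatty acid transporter and very long-chain acyl-CoA synthetase, had between 766 and 1792 CPM in the 7 libraries of cluster 3, with a median of 1087. Its range was 87.9 to 422 CPM in cluster 5, 52.3 to 374 in cluster 4, 24.3 to 243 in cluster 7 and 13.2 to 189 in cluster 6. Cluster 3 and the other clusters did not overlap, and the log2 fold change was 4.11 ± 0.20 (SE, edgeR adjusted p = 2.99e-37). Acsm2, a medium-chain acyl-CoA synthetase of the mitochondrial matrix, ranged over 979 to 2471 CPM in cluster 3, with a median of 1656. In cluster 5 it ranged over 95.4 to 660.2 CPM. The gap between the groups was again complete, with a log2 fold change of 3.55 ± 0.16 (edgeR adjusted p = 5.91e-40). Its neighbour Acsm1 had a mean of 91.4 ± 43.1 CPM in cluster 3 and 15.5 ± 19.1 CPM in cluster 5 (SD, n = 7 each), and a log2 fold change of 3.48 over clusters 4 to 7. The pair lies side by side on chromosome 7, with Acsm2 at chr7:119554340-119600690 and Acsm1 at chr7:119607026-119662515 on GRCm38. Over the means of 15 clusters, all but cluster 16, their levels on the log2 scale had a Pearson r of 0.97. By the same measure Slc27a2 followed Acsm2 with 0.95. These r values share libraries and a free-RNA source and are given as descriptions.

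**Figure D1:**
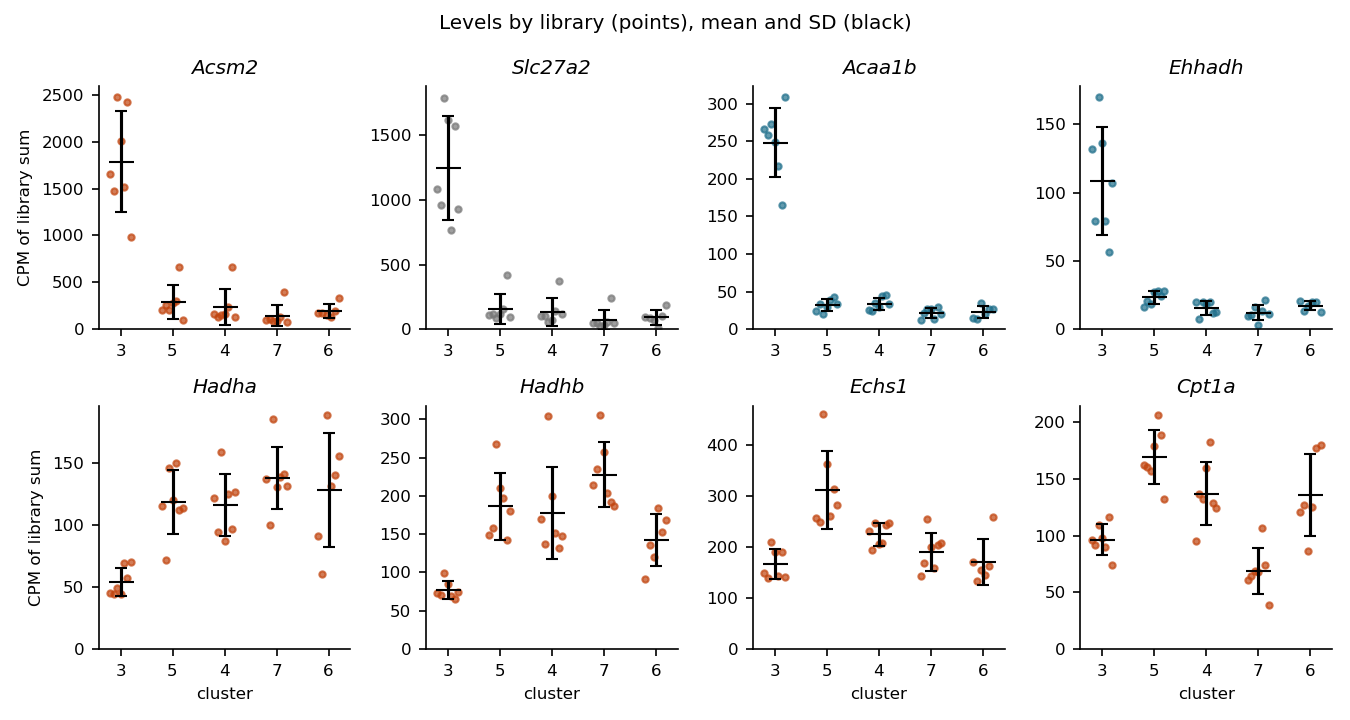
CPM of 8 members in each library (points) with mean and SD (black), for clusters 3, 5, 4, 7 and 6 from left to right. Acsm2, Slc27a2, Acaa1b and Ehhadh in cluster 3 lay above all other clusters, while Hadha, Hadhb, Echs1 and Cpt1a in cluster 3 lay below cluster 5.

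Long-chain and binding steps differed less evenly. Dbi, the acyl-CoA binding protein, had a median of 2443 CPM in cluster 3, between 1526 and 3247, against a median of 763 CPM in cluster 5. The ranges of clusters 3 and 4 to 7 were separate, and the log2 fold change was 2.14 ± 0.13 (edgeR adjusted p = 1.2e-28). Dbi was higher still in cluster 9, the cells with proliferation markers, at 3351 ± 1009 CPM (SD, n = 4). Of the 601 cells of cluster 9, 552 came from library 5, and the other libraries counted held 28, 9 and 6. Acsl1, a long-chain acyl-CoA synthetase, had no call against clusters 4 to 7. It averaged 85.2 ± 52.2 CPM in cluster 3, 108 ± 24.0 CPM in cluster 5, 143 ± 25.5 CPM in cluster 4 and 77.1 ± 14.1 CPM in cluster 7 (SD, n = 7 each).

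Among the peroxisomal genes, Acaa1b and Ehhadh stood out. Acaa1b encodes a peroxisomal thiolase, the enzyme of the last step of a round. It ranged over 165 to 309 CPM in cluster 3, with a median of 258, against 20.9 to 43.5 CPM in cluster 5 and 24.9 to 45.3 CPM in cluster 4. No library of another tubule cluster reached cluster 3, and the log2 fold change was 3.38 ± 0.13 (edgeR adjusted p = 1.44e-45). Acaa1b has the close paralog Acaa1a, so the division of reads between them is uncertain. Ehhadh, a bifunctional enzyme, ranged over 56.9 to 169.7 CPM in cluster 3 around a median of 107, and over 16.5 to 28.1 CPM in cluster 5. Its log2 fold change was 2.77 ± 0.16 (edgeR adjusted p = 1.59e-31). Hacl1, a lyase of alpha oxidation, and Pex11a, which promotes peroxisome division, were higher by 1.65 and 1.45 on the log2 scale. Pex11a had 35.3 to 65.2 CPM in cluster 3 and 14.7 to 25.3 CPM in cluster 5.

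The remaining peroxisomal members differed by less. Crot, which moves medium-chain acyl groups to carnitine, was higher by 0.98 on the log2 scale. Phyh, the phytanoyl-CoA hydroxylase of alpha oxidation, was higher by 0.53, Hsd17b4, another bifunctional enzyme, by 0.48, and Abcd3, an importer of acyl-CoA, by 0.46. Their libraries overlapped: Abcd3 had 126 to 191 CPM in cluster 3 and 79.2 to 196 CPM in cluster 6. By mean level, Abcd3 and Hsd17b4 were highest in cluster 6 and not in cluster 3. Abcd3 had 160 CPM in cluster 6 and 157 CPM in cluster 3, with cluster 6 the higher in 5 of 6 libraries. Hsd17b4 had 72.3 and 65.4 CPM, with cluster 6 the higher in 2 of 6. Hsd17b4 and Abcd3 lost their call with the median-ratio size factors. With DESeq2, Hsd17b4, Abcd3 and Phyh lost it. Phyh and Abcd3 lost it without libraries 3 and 4.

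**Figure D2:**
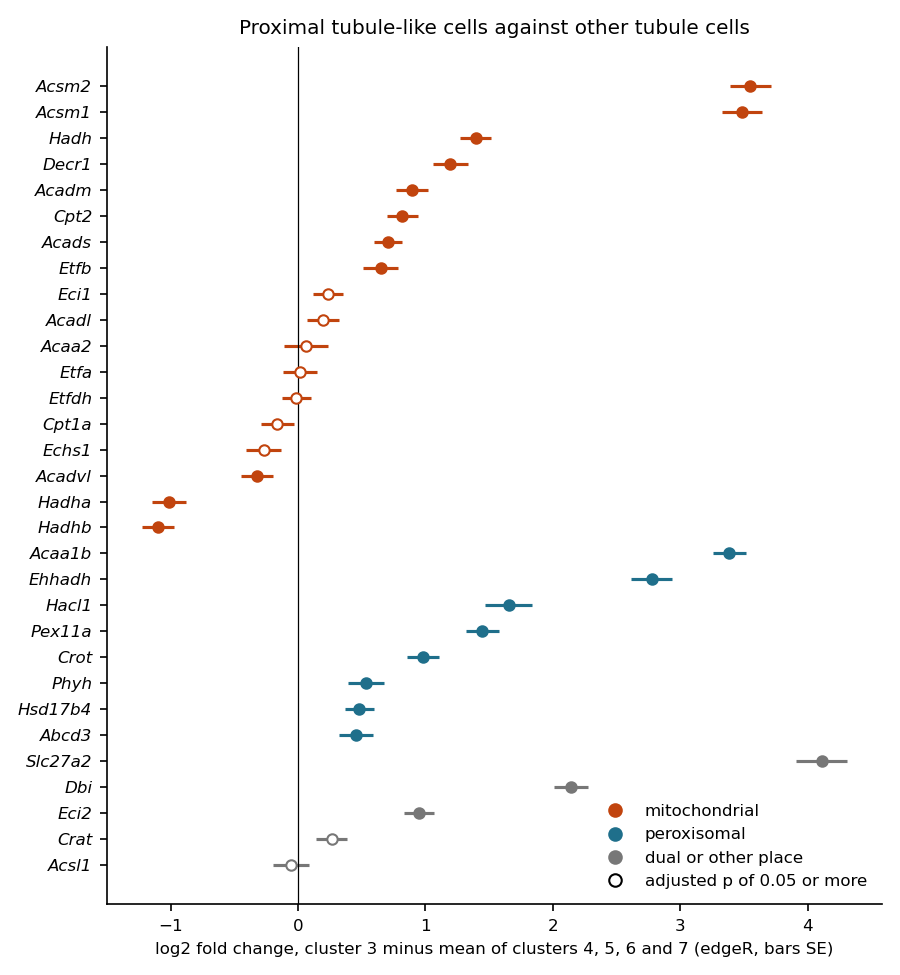
Log2 fold change of the 31 tested members in cluster 3 against the mean of clusters 4, 5, 6 and 7, with SE bars; filled points had an edgeR adjusted p under 0.05. All 8 peroxisomal points lay right of 0, and Hadha and Hadhb lay farthest left.

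The upstream sequences of 3 members are shown, Acsm2 and Acaa1b from the higher side of this range and Hadha from the lower. They are not its extremes, which were Slc27a2 at 4.11 and Hadhb at -1.10 on the log2 scale. Each sequence is the 250 bases before the RefSeq start (GRCm38.p6), written 5′ to 3′ on the gene's strand with CG dinucleotides in capitals. The Acsm2 sequence is chr7:119554090-119554339 (plus strand), that of Acaa1b is chr9:119157094-119157343 (minus strand) and that of Hadha is chr5:30154981-30155230 (minus strand).
Acsm2: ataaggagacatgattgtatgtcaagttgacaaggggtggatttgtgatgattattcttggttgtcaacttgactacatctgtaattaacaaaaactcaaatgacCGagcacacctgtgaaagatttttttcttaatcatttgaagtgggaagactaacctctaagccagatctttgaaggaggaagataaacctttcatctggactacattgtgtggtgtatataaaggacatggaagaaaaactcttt
Acaa1b: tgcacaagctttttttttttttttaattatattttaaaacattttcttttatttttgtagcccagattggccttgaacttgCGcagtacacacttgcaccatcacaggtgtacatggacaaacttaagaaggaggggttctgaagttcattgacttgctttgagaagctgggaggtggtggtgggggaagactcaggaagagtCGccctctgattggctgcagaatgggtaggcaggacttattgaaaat
Hadha: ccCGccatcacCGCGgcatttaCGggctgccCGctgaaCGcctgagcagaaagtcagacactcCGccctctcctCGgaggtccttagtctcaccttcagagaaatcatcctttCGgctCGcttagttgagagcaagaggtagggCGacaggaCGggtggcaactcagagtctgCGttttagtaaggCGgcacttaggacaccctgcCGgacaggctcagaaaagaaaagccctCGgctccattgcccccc
The Acsm2 sequence holds 1 CG and that of Acaa1b 2, against 16 in Hadha. Another start entry of Acsm2 holds 3. Among other members higher in cluster 3 the number varied, with 1 in Acsm1, 12 in Ehhadh, 19 in Slc27a2, and 23 and 20 in the entries of Dbi. The Hadha window overlaps that of Hadhb, chr5:30155003-30155252 on the plus strand, since these genes start head to head. The Hadhb window holds 17 CG, so the extremes Slc27a2 and Hadhb were much alike in this number. Start-site windows were found for 28 of the 32 members, in 32 entries. Of these entries, 5 (15.6%) held at most 3 CG, against 37.8% of 32851 windows of all genes. The search covered both strands of the 250 bases before the start. It sought a direct repeat of type DR1, bound by Ppara, the estrogen-related receptor site TCAAGGTCA and the Hnf4a site CAAAGTCCA. They occurred in 0.338%, 0.387% and 0.384% of all windows, and no member window held them. The palindromic site of NRF1 occurred in the windows of Etfdh and Ppara and in 0.782% of all windows. A match of letters is a description and says nothing of binding.

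Besides Acsm1 and Acsm2, 6 mitochondrial members were higher in cluster 3. Acadm, the medium-chain acyl-CoA dehydrogenase, had a median of 255 CPM in cluster 3, between 229 and 446, and of 193 CPM in cluster 5, between 159 and 223. All libraries of cluster 3 lay above those of cluster 5. The range of cluster 3 overlapped that of cluster 4, which had a mean of 217 CPM, but within a library cluster 3 was the higher in 7 of 7. The log2 fold change over clusters 4 to 7 was 0.89 ± 0.13 (edgeR adjusted p = 1.22e-09). Hadh, the short- and medium-chain 3-hydroxyacyl-CoA dehydrogenase, was higher by 1.39. Its ranges were 206 to 411 CPM in cluster 3, 164 to 245 CPM in cluster 5 and 46.7 to 113 CPM in cluster 7, so that it overlapped cluster 5 and not cluster 7. Decr1, the dienoyl-CoA reductase of unsaturated chains, was higher by 1.20, Cpt2 of the inner carnitine shuttle by 0.82, Acads, the short-chain dehydrogenase, by 0.70, and Etfb, a subunit of the electron carrier, by 0.65. Etfa, the partner of Etfb, and Etfdh, which passes their electrons on, had no call.

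Hadha and Hadhb, the subunits of the trifunctional protein that carries out the last steps on long chains, went the other way. Hadha had between 44.4 and 70.3 CPM in the libraries of cluster 3, with a median of 49.3. Its range was 72.1 to 150.2 CPM in cluster 5, 87.4 to 159 in cluster 4, 100.5 to 186 in cluster 7 and 61.1 to 189 in cluster 6. Only cluster 6 overlapped cluster 3, and the log2 fold change was -1.01 ± 0.13 (edgeR adjusted p = 5.12e-11). Hadhb ranged over 65.8 to 99.1 CPM in cluster 3, with a median of 72.8, and over 187 to 305 CPM in cluster 7, where it was highest. It fell by 1.10 on the log2 scale (SE 0.13, edgeR adjusted p = 2.48e-13), and both genes were lower in all 7 libraries. Both kept their call under every alternative run that tested them. Acadvl, the very long-chain dehydrogenase, was lower by edgeR with a log2 fold change of -0.32. It lost this call in several alternatives, including without library 2, 5, 6 or 7.

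In droplet data, RNA free in the suspension adds transcripts of abundant cells to other cells, so proximal markers were read in each cluster. The sum of 8 proximal markers stood at 13.7% of its cluster 3 level in cluster 5, 11.1% in cluster 4, 6.43% in cluster 7 and 7.22% in cluster 6. Single markers spanned 10.9% to 19.3% in cluster 5 and 5.12% to 11.4% in cluster 7. Acsm1, Acsm2, Slc27a2 and Acaa1b lay within the span of the markers in all 4 clusters. Within that span, Acsm2 exceeded the share of the summed markers by a mean of 40.6 CPM in cluster 5, 34.5 in cluster 4, 25.0 in cluster 7 and 55.2 in cluster 6, and did so in 6 of 7, 5 of 7, 7 of 7 and 6 of 6 libraries. Acaa1b exceeded it in 4 of 7 libraries of cluster 5, 6 of 7 of cluster 4, 4 of 7 of cluster 7 and 4 of 6 of cluster 6. No difference from background is read from levels within the span, and which of these UMIs were free RNA was not tested. Ehhadh lay within it in clusters 4 and 7, and above it at 21.5% in cluster 5 and 15.9% in cluster 6. In cluster 5, 28 of the 32 members lay above the span, and 27 did in each of clusters 4, 6 and 7. Hadha stood at 218%, 214%, 254% and 248% of its cluster 3 level in clusters 5, 4, 7 and 6, and Hadhb at 243%, 232%, 297% and 185%.

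**Figure D3:**
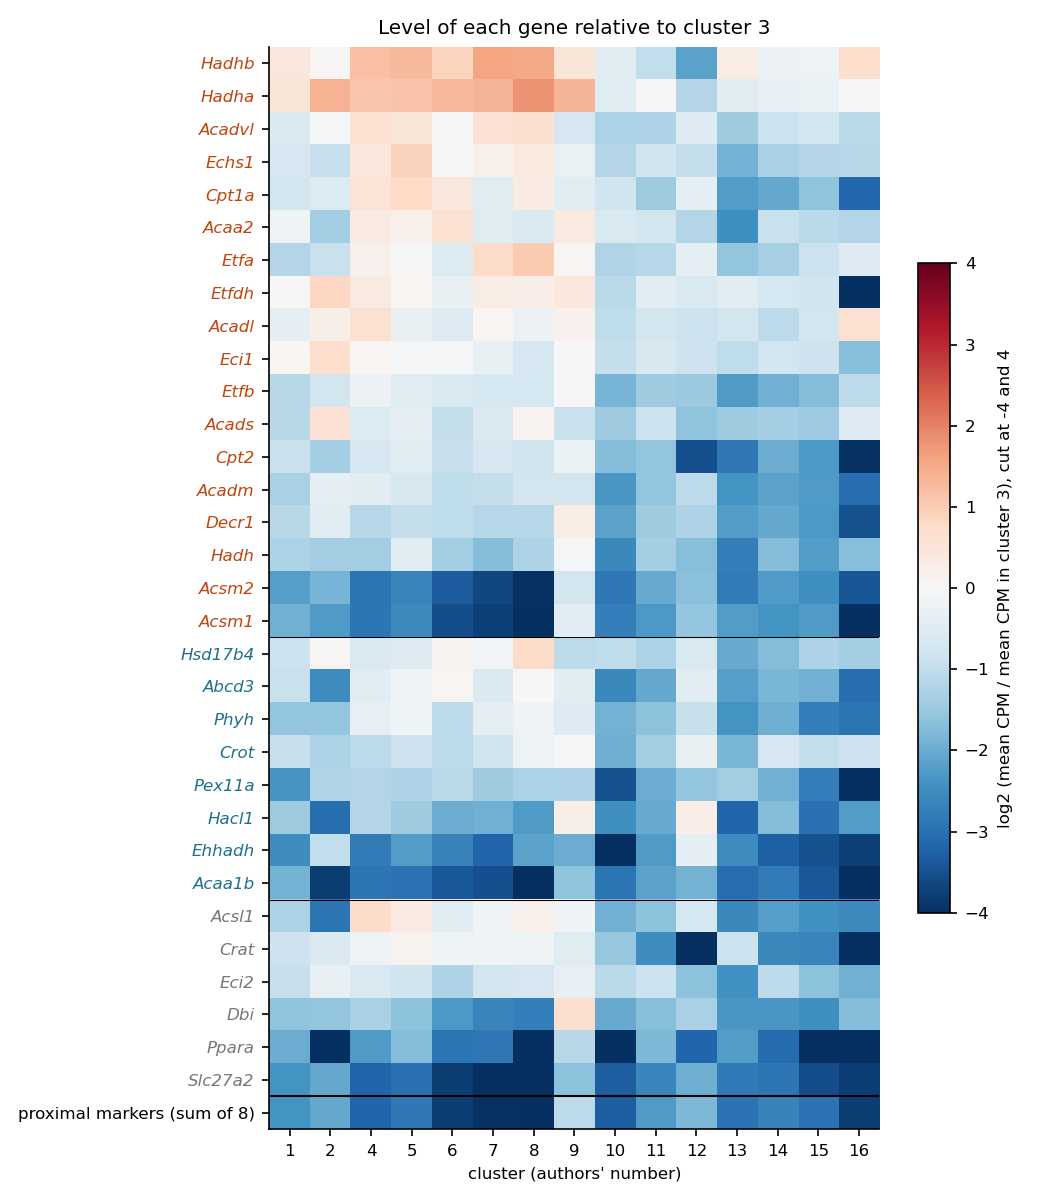
Mean CPM of each member in clusters 1, 2 and 4 to 16 relative to cluster 3 (log2 colour scale), with the summed proximal markers in the bottom row; names are red for mitochondrial, blue for peroxisomal and grey for other members. Acsm1, Acsm2, Slc27a2 and Acaa1b followed the bottom row in clusters 4 to 7. In cluster 2, Acaa1b stood at 7.25% of cluster 3, below the summed markers at 24.2%. Hadha and Hadhb were above cluster 3 in clusters 4 to 8, and also in clusters 1 and 2.

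Each class was also summed. The 18 mitochondrial members together had 4183 ± 952 CPM in cluster 3, 2619 ± 411 in cluster 5, 2538 ± 445 in cluster 4, 2183 ± 341 in cluster 7 and 2075 ± 320.3 in cluster 6 (SD, n = 7, and 6 in cluster 6). The 8 peroxisomal members had 1019.9 ± 197 CPM in cluster 3, 562 ± 49.1 in cluster 5, 500.3 ± 62.2 in cluster 4, 487 ± 54.1 in cluster 7 and 491 ± 65.1 in cluster 6. Peroxisomal libraries of cluster 3, at 813 CPM or more, lay above all others, whose highest was 635 CPM. Mitochondrial libraries overlapped in range, but within a library cluster 3 was the higher in 7 of 7 against each of clusters 5, 4 and 7, and in 6 of 6 against cluster 6.

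Relative to each other, there were 24.9 ± 4.72 peroxisomal UMIs per 100 mitochondrial UMIs in cluster 3 and 21.8 ± 3.19 in cluster 5 (SD, n = 7 each). The ranges overlapped, and cluster 3 was the higher in 6 of 7 libraries against clusters 5, 4 and 7 and in 2 of 6 against cluster 6. Acsm2 made up 42.2% of the mitochondrial sum of cluster 3, and Acaa1b and Phyh 24.7% and 24.6% of the peroxisomal sum. By mean level Phyh was the highest peroxisomal member, at 260.1 ± 134 CPM in cluster 3 and 231 ± 41.6 CPM in cluster 5, and Acaa1b followed with 248 ± 45.7 CPM in cluster 3 and 31.97 ± 7.87 CPM in cluster 5. Without Acsm2, the mitochondrial sums were 2396 ± 497 CPM in cluster 3 and 2331 ± 377 CPM in cluster 5 (SD, n = 7 each), a difference within the SD, with cluster 3 the higher in 4 of 7 libraries. Without Phyh, the peroxisomal sums were 759.8 ± 101 CPM in cluster 3 and 331 ± 39.2 CPM in cluster 5, with no overlap of libraries. Without Acsm2 and Phyh the ratio was 32.5 ± 6.55 in cluster 3, against 14.6 ± 2.94 in cluster 5, 13.01 ± 2.72 in cluster 4, 14.2 ± 2.16 in cluster 7 and 19.2 ± 3.93 in cluster 6. Its lowest library in cluster 3, at 26.7, lay above the highest of any other tubule cluster, at 24.0. Without Acsm2 and Acaa1b, a choice made after seeing the data, the ratio was 32.1 ± 2.80 in cluster 3, against 23.1 ± 2.88 in cluster 5, 20.6 ± 2.92 in cluster 4, 23.04 ± 2.38 in cluster 7 and 25.4 ± 4.70 in cluster 6. Ranges then overlapped with clusters 5 and 6, and cluster 3 was the higher in 7 of 7 libraries against clusters 5, 4 and 7 and in 5 of 6 against cluster 6.

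**Figure D4:**
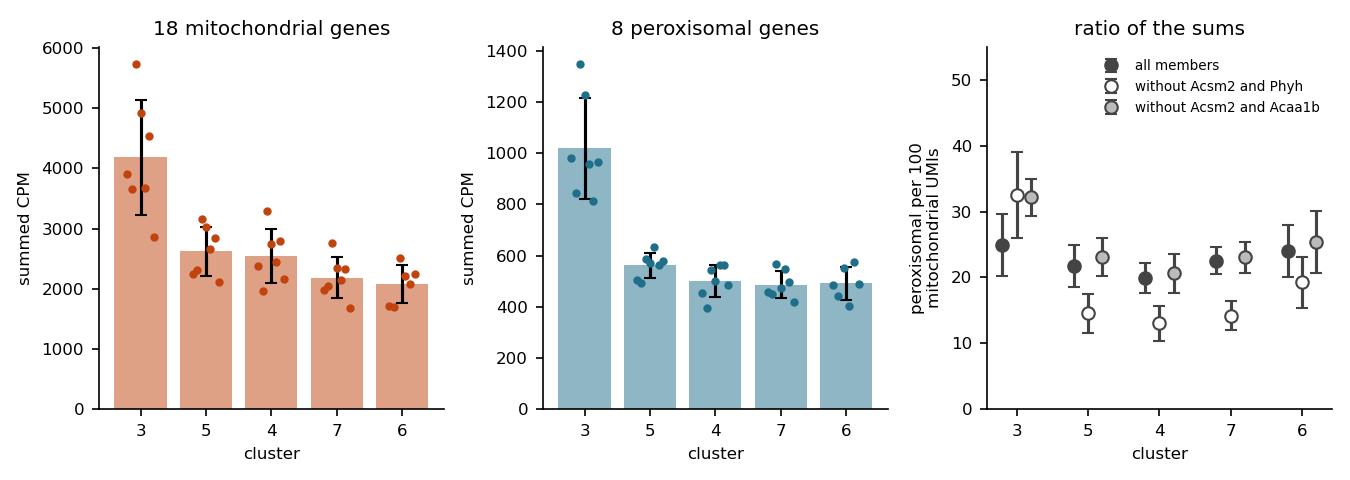
Summed CPM of the mitochondrial and peroxisomal members (bars are means, lines SD, points libraries) and the ratio of the sums (mean and SD), for clusters 3, 5, 4, 7 and 6. Without Acsm2 and Phyh the ratio was 32.5 in cluster 3 and between 13.01 and 19.2 elsewhere, and without Acsm2 and Acaa1b it was 32.1 in cluster 3 and between 20.6 and 25.4 elsewhere.

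Outside clusters 3 to 7 the mitochondrial sums were mostly lower. Cluster 8, at 2201 ± 230 CPM (SD, n = 4), lay above the means of clusters 7 and 6. Mitochondrial members had 2002 ± 542 CPM in the podocyte-like cluster 2 (n = 4), 1756 ± 467 in the endothelial-like cluster 1 and 974 ± 366 in the B lymphocyte-like cluster 13 (SD, n = 7 each). The cluster 9 cells had 3179 ± 218 CPM (n = 4, most cells from library 5), and proximal markers stood there at 48.8% of cluster 3. Peroxisomal sums did not follow the same order. They were 578 ± 36.7 CPM in cluster 8 (n = 4), 548 ± 220 in the neutrophil-like cluster 12 (n = 5) and 518 ± 162 in cluster 9 (n = 4), about the level of clusters 4 to 7. Clusters 8 and 12 held 110 and 74 cells, and the ratio in cluster 12 was 47.9 ± 33.7. In the T lymphocyte-like cluster 14, 17 of the 32 members lay within or below the span of the proximal markers.

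Cluster 3 was then set against cluster 5 alone, the tubule cluster with the highest share of mitochondrially encoded transcripts. Cluster 3 had 14 members higher and 6 lower of 31, where edgeR called 52.5% of all genes, 25.9% higher and 26.6% lower. The mitochondrial members were split evenly, with 5 higher and 5 lower of 18. That is 27.8% each way, near the shares of all genes. Of the 8 peroxisomal members 6 were higher, or 75%. Median-ratio size factors gave 11 higher and 9 lower, DESeq2 11 and 8, and the split without libraries 3 and 4 was 12 and 7. Mitochondrially encoded transcripts took a median of 16.7% of the UMIs of a cell in cluster 3 and 31.7% in cluster 5. With those genes removed, the split remained 14 and 6.

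The 6 lower members were Cpt1a, Echs1, Hadha, Hadhb, Acadvl and Acsl1. Cpt1a, the gate of the carnitine shuttle, had a median of 96.1 CPM in cluster 3, between 74.2 and 116, and of 162 CPM in cluster 5, between 133 and 206. No library overlapped, and the log2 fold change was -0.89 ± 0.16 (edgeR adjusted p = 7.91e-07). Echs1, the short-chain enoyl-CoA hydratase, had 139.8 to 210.2 CPM in cluster 3 and 249.7 to 461 CPM in cluster 5. It too was separate, with a log2 fold change of -1.004 ± 0.17 (edgeR adjusted p = 2.3e-07). Hadhb and Hadha were lower by 1.36 and 1.19, Acadvl by 0.61 and Acsl1 by 0.53, the last with its call lost without library 2 or 6. Among the higher members, Slc27a2 differed by 3.31, Acaa1b by 2.87 and Ehhadh by 2.04 on the log2 scale.

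Between the distal convoluted tubule-like cluster 5 and the loop-like cluster 4, few members passed the test. In cluster 5, 5 members were higher and 1 lower of 31, with 12.8% of all genes called by edgeR, 6.75% higher and 6.01% lower. Hadh was the clearest, with 164 to 245 CPM in cluster 5 against 89.4 to 134 CPM in cluster 4. Its libraries did not overlap, and the log2 fold change was 1.21 ± 0.18 (edgeR adjusted p = 2.87e-08). Echs1 was higher by 0.70, Crat, the carnitine acetyltransferase, by 0.62, and Cpt1a by 0.55. Ehhadh was higher by 0.86 at low levels, 23.3 ± 4.66 CPM in cluster 5 and 15.8 ± 5.13 CPM in cluster 4. That was so in 5 of 7 libraries (edgeR adjusted p = 0.0394), and its cluster 4 level lay within the span of the proximal markers. Acadl, the long-chain dehydrogenase, was lower by edgeR, with a log2 fold change of -0.67 and 51.3 to 92.7 CPM in cluster 5 against 94.6 to 217 CPM in cluster 4. Only 3 members were higher without library 5, 6 or 7, and a fit without the library term called 2 higher. A fit of the compared clusters alone called 14 higher, and 13 members were higher at an unadjusted p under 0.05 in the fit of all clusters, so the number that differed depends on the fit.

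Intercalated-like cells of cluster 7 were set against principal-like cells of cluster 6. In cluster 7, 6 members were higher and 1 lower of 31, a share of 22.6% beside 25.0% of all genes called by edgeR (12.7% higher and 12.3% lower), and so near the background. Etfa, a subunit of the electron transfer flavoprotein, had a median of 315 CPM in cluster 7, between 218 and 427, and of 131 CPM in cluster 6, between 79.6 and 224. It was higher in all 6 libraries that held both, with a log2 fold change of 1.46 ± 0.20 (edgeR adjusted p = 2.04e-09), although the ranges overlapped slightly. Hadhb was higher by 0.76, Acadl by 0.77, Phyh by 0.72, Acadvl by 0.61 and Acads by 0.53. Cpt1a was lower, with 38.9 to 107 CPM in cluster 7 against 86.0 to 179.8 CPM in cluster 6, and a log2 fold change of -0.84 ± 0.20 (edgeR adjusted p = 0.000539). Median-ratio size factors, which moved the median of all genes to -0.21, gave 3 higher and 3 lower, as did DESeq2. Without the library term 2 were higher, and without library 4 the number lower was 2.

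Macrophage-like cells of cluster 11 had 2 members higher than the lymphocyte-like clusters 13, 14 and 15, of 31 tested. That is 6.45%, beside 21.9% of all genes called by edgeR, 11.9% higher and 10.1% lower. Phyh had 83.7 ± 68.8 CPM in cluster 11, against 49.8 ± 30.0, 67.8 ± 21.8 and 39.2 ± 26.4 CPM in clusters 13, 14 and 15 (SD, n = 7 each). Dbi had 711 ± 435 CPM in cluster 11, against 466 ± 167, 464 ± 107 and 422 ± 169 CPM. The libraries overlapped for both, and no member remained higher without library 5 or without library 6. Without library 3 the number was 4, and without library 7 it was 1. Median-ratio size factors, which moved the median of all genes to 0.21, gave 6 higher and DESeq2 7. The proximal markers stood at 20.8% of cluster 3 in cluster 11 and at 12.9%, 15.7% and 12.8% in clusters 13, 14 and 15, and their part in these differences was not tested.

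Within cluster 3, peroxisomal members were mostly higher in cells of the late proximal tubule. A cell was called late when it held more UMIs of 6 late markers than of 4 early markers, and early when it held fewer. Of the late markers, 3 of 6 were highest in cluster 3, and of the early markers 3 of 4. Of the late markers, Slc7a13 and Atp11a had 288 and 265 CPM in cluster 3, and Slc5a1, Slc22a7, Cyp7b1 and Bcat1 had 23.6, 13.2, 0.370 and 0.165 CPM. This gave 4979 late and 17039 early cells, and 4464 cells were in neither class. Late cells had 12 members higher and 4 lower of 32, or 50% called, where edgeR called 20.7% of all genes outside the marker lists. Higher members were 37.5%, beside 11.2% of all genes, and lower members 12.5%, beside 9.5%. Of the 8 peroxisomal members, 6 were higher and 1 lower, and of the 18 mitochondrial members 4 were higher and 1 lower. Without libraries 3 and 4, 17 were higher and 4 lower. The library term carried weight: without it 4 members were higher, namely Acadm, Ehhadh, Crot and Slc27a2.

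Slc27a2 had a median of 2039.6 CPM in late cells, between 1399.5 and 2244, and of 952 CPM in early cells, between 695 and 1199. The classes did not overlap, and the log2 fold change was 1.03 ± 0.09 (edgeR adjusted p = 2.09e-09). Ehhadh ranged over 82.7 to 303 CPM in late cells and 41.6 to 138 CPM in early cells, with a log2 fold change of 1.03 ± 0.11 (edgeR adjusted p = 2.71e-08). Crot had 97.2 to 206 CPM in late cells and 51.5 to 113 CPM in early cells, and was higher by 0.93. For both the ranges overlapped, but late exceeded early in 7 of 7 libraries. Acadm was the leading mitochondrial member, with 321 to 622 CPM in late cells against 199 to 355 CPM in early cells and a log2 fold change of 0.71 ± 0.11 (edgeR adjusted p = 1.21e-05). Acaa1b was higher by 0.78, Pex11a by 0.58, Eci2, an isomerase found in both organelles, by 0.55, Decr1 by 0.51, Acadl by 0.49, Abcd3 by 0.47, Cpt1a by 0.38 and Phyh by 0.25.

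Acaa2, the mitochondrial thiolase, went the opposite way to Acaa1b. It had a median of 57.2 CPM in late cells, between 3.57 and 94.0, and of 118 CPM in early cells, between 57.9 and 195. The ranges overlapped across libraries, but late cells were lower in 7 of 7, with a log2 fold change of -1.41 ± 0.17 (edgeR adjusted p = 3.63e-07). Acsl1 fell by 0.87 on the log2 scale (SE 0.13, edgeR adjusted p = 8.81e-06) and was lower in late cells of 6 of 7 libraries, library 7 being the exception with 217 CPM in late and 190.1 CPM in early cells. Hacl1 and Ppara were lower by 0.40 and 0.33. Their edgeR calls were lost without library 2 or 6, and each with other libraries left out too, so 2 members were then lower. Acaa2 and Acsl1 kept their calls in every alternative except the fit without the library term.

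**Figure D5:**
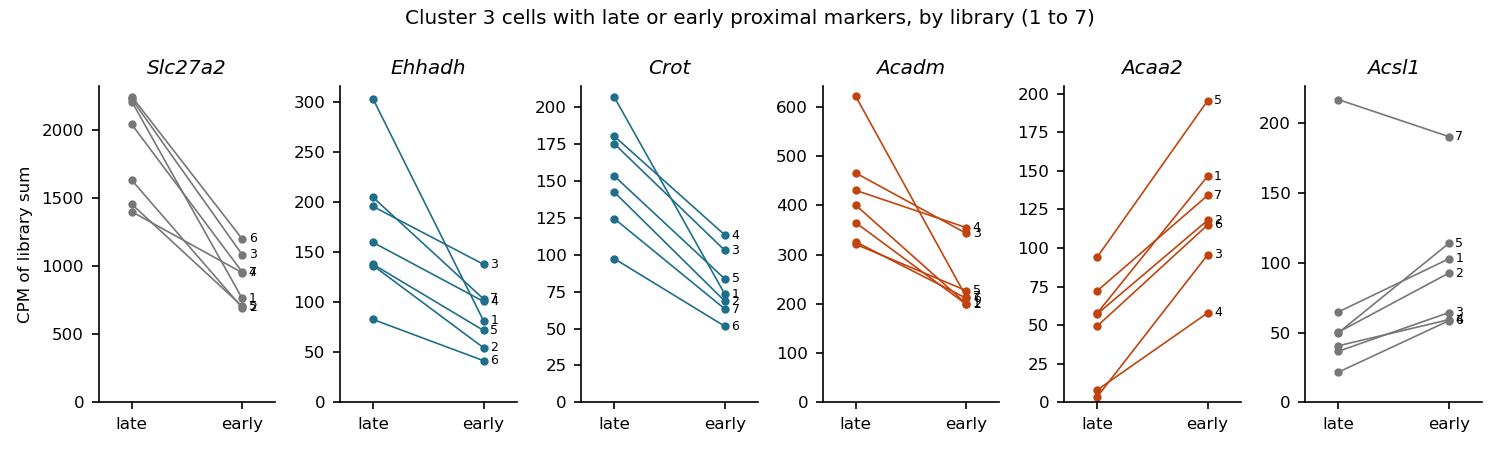
CPM of 6 members in late (left) and early (right) cells of cluster 3, with lines joining the classes of a library and numbers naming the library. Slc27a2, Ehhadh, Crot and Acadm were higher in late cells of all 7 libraries, Acaa2 was lower in all 7, and Acsl1 lower in 6 of 7.

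Libraries differed most in a few of these genes. Over the libraries of cluster 3 the highest level exceeded the lowest 7.49-fold for Acaa2, 5.81-fold for Hacl1, 4.54-fold for Acsl1 and 4.28-fold for Phyh, against 1.503-fold for Echs1 and 1.507-fold for Hadhb. Acaa2 was lowest in library 4, at 24.5 CPM, and highest in library 5, at 184 CPM. Libraries 3 and 4 had the lowest Acaa2 within each class of cells: 3.57 and 8.00 CPM in late cells, against 49.3 to 94.0 CPM elsewhere, and 95.5 and 57.9 CPM in early cells, against 115 to 195 CPM. In cluster 5 and in cluster 4, library 3 was instead the highest for Acaa2, at 159 CPM in both. Phyh in libraries 3 and 4 was 458 and 408 CPM in late cells, against 164 to 261 CPM elsewhere, and 476 and 398 CPM in early cells, against 107 to 204 CPM. These contrasts between libraries were seen in the values and were not tested.

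Other genes of the pathways were read from lists that hold none of the members. Of 22 tested peroxisomal genes outside the 32, 20 were higher in cluster 3 than in clusters 4 to 7 (edgeR adjusted p under 0.05), or 90.9% beside 29.1% of all genes, with a median log2 fold change of 2.14, against -0.04 over all genes. Pecr, the peroxisomal trans-2-enoyl-CoA reductase, had 314 ± 152 CPM in cluster 3 and 29.1 ± 13.96 CPM over the others (SD, n = 7 each). Dao, the D-amino acid oxidase, had 244 ± 33.2 CPM in cluster 3 and 30.7 ± 12.2 CPM over the others. Of 7 tested genes of peroxisome assembly, 2 were higher, or 28.6% beside 29.1% of all genes, and so near the background. Of 15 other mitochondrial oxidation genes, 9 were higher and 3 lower (60% and 20%, beside 29.1% and 31.4% of all genes). Acsm3, another medium-chain synthetase, had a log2 fold change of 3.53 and Acadsb, the dehydrogenase of short branched chains, -1.56. Acsm3 varied widely, with 112 ± 150 CPM in cluster 3 and 8.62 ± 10.8 CPM over the others, and was higher in 6 of 7 libraries. Uptake, binding and activation genes were 3 higher and 6 lower of 11, or 27.3% and 54.5%. Cd36, a fatty acid receptor and transporter, differed by 3.46, while the acyl-CoA synthetases Acsl5 and Acsl4 differed by -3.33 and -1.66. Cd36 also varied widely, with 115 ± 133 CPM in cluster 3 and 10.4 ± 9.06 CPM over the others, but was higher in 7 of 7 libraries. Of 12 regulators and Ppara targets, 8 were higher and 2 lower, or 66.7% and 16.7%. Hnf4a, a nuclear receptor of proximal cells, had 287 ± 43.9 CPM in cluster 3 and 29.5 ± 17.8 CPM over the others. The coactivator gene Ppargc1a had 78.2 ± 20.1 CPM in cluster 3 and 245 ± 39.0 CPM over the others, a log2 fold change of -1.49.

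In late cells of cluster 3, 14 of 28 other peroxisomal genes were higher and 2 lower than in early cells by edgeR, or 50% and 7.14%, beside 11.2% and 9.5% of all genes. Agps, an enzyme of ether lipid synthesis, had 186 ± 83.5 CPM in late cells and 63.4 ± 38.8 CPM in early cells (SD, n = 7 each). Acaa1a, the paralog of Acaa1b, was lower with a log2 fold change of -0.51, where Acaa1b was higher by 0.78. Of 19 other mitochondrial oxidation genes, 9 were higher, or 47.4%. Cd36 had 189.9 ± 155 CPM in late cells and 54.4 ± 69.9 CPM in early cells, a wide spread, but late exceeded early in 7 of 7 libraries. The fatty acid binding protein gene Fabp3 had 20.8 ± 5.12 CPM in late cells and 118 ± 61.6 CPM in early cells. The acetyl-CoA synthetase gene Acss1 had 24.0 ± 18.3 CPM in late cells and 132 ± 24.4 CPM in early cells, a log2 fold change of -2.76.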

How the data were processed

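Whole mouse kidneys were profiled cell by cell with the Chromium 3′ kit, as the labels' protocols state. Cell Ranger 1.3 and STAR were used with mm10 (GRCm38.p4), per the submitters' processing notes. The deposited table holds UMI counts per gene and cell, not normalized, with the authors' cluster number of each cell. It holds 43745 cells, where the labels state 57979. How cells were filtered, doublets treated and clusters drawn is not given in the sources used here, and no doublet caller was run. Replicates are the 7 libraries, taken as separate kidneys.

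Counts were summed per library and cluster with at least 5 cells and tested with edgeR 4.0.16 in R 4.3.3 (TMM, filterByExpr, quasi-likelihood F test, terms for cluster and library, all 16 clusters in 1 fit). Adjusted p-values are Benjamini-Hochberg over all genes tested, with a threshold of 0.05. The library is a block because the cells of a library come from the same kidney. Late and early cells were fitted alike, and their marker genes were left out of counts. The procedure was tested on simulated data. Levels are mean ± SD of CPM. Sequences are RefSeq's, on GRCm38.p6, and gene positions GENCODE vM21.

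All 32 members may be named. Genes of other lists are named when called with an average log2 CPM of at least 5, up to 4 per direction, list and comparison. 1 gene that this rule names is not reported here. The members and lists were chosen with earlier results of these data known. Alternatives were DESeq2 1.42.0, median-ratio (RLE) size factors, sums of at least 20 cells, no filter on low counts, no library term, cells thinned to 1000 UMIs (2494 shallower cells left out), the 5% of cells with most UMIs removed (2134 cells), no mitochondrially encoded genes, only the compared clusters, a margin of 2 marker UMIs, other member classes, and each library left out. Leaving out libraries 3 and 4 together, and Acsm2 and Acaa1b from the sums, was chosen after seeing the data.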

Additional observations from a re-analysis of the deposited data

Results flagged for a closer look

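In the tubule clusters, 47 groups of libraries were examined for a sample far from the others, and 2 were found, where chance gives about 1 in 20. Acsm1 in cluster 3 had 185 CPM in library 6, against a next highest of 96.5 CPM. Acsl1 in cluster 3 had 189 CPM in library 7, against a next highest of 105 CPM.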

How the results depend on the processing

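No called difference reversed under any alternative run. Some calls held in every setting that tested the member. They were 18 of 22 in cluster 3 against clusters 4 to 7 and 16 of 20 in cluster 3 against cluster 5. They were 1 of 6 in cluster 5 against cluster 4 and 3 of 7 in cluster 7 against cluster 6. They were 0 of 2 in cluster 11 against clusters 13 to 15 and 4 of 16 in late against early cells. A member that a setting did not test was not counted as lost. With thinned cells, 17 of the 22 and 15 of the 20 kept their call. For cluster 3 against clusters 4 to 7, DESeq2 gave 6 lower members and RLE size factors 7. For cluster 3 against cluster 5, thinned cells gave 9 higher. For cluster 5 against cluster 4, no replicate block gave 2 higher and 0 lower, only the compared clusters 14 higher, and leaving out each library 3 to 6 higher. For cluster 7 against cluster 6, DESeq2 and RLE each gave 3 higher and 3 lower, no replicate block 2 higher, the compared clusters alone 3 lower, and thinned cells, removal of the cells with most UMIs or of libraries 3 and 4 each 2 lower; leaving out each library gave 1 to 2 lower. For cluster 11, DESeq2 gave 7 higher, RLE 6, no filter on low counts 0 and no replicate block 1, and leaving out each library 0 to 4 higher and 0 to 1 lower; 6 members had an unadjusted p under 0.05 by edgeR. For late against early cells, no replicate block gave 4 higher and 0 lower, DESeq2 and thinned cells 2 lower, and leaving out each library 2 to 4 lower. The cause of these changes was not tested. Removing mitochondrially encoded genes from the totals gave mitochondrial sums of 5255, 3761, 3317, 2915 and 2591 CPM and peroxisomal sums of 1282, 808, 655, 650.1 and 614 CPM in clusters 3, 5, 4, 7 and 6. With Eci2, Crat and Slc27a2 counted as peroxisomal, those sums were 2397, 820.1, 733, 653 and 664 CPM, and the ratio per 100 mitochondrial UMIs 57.6, 31.7, 29.2, 30.1 and 32.5. Without the highest member of each class, the mitochondrial sum of cluster 3 was 2396 CPM, the peroxisomal sums 759.8, 331, 292, 285 and 354 CPM, and the ratios 32.5, 14.6, 13.01, 14.2 and 19.2. With Acsm2 and Acaa1b left out, cluster 3 had 772 peroxisomal CPM and a ratio of 32.1. Clusters with few cells limit what could be detected: cluster 11 held 228 cells in 7 libraries.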

Other observations

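Ketone body and fatty acid synthesis genes were also read. In cluster 3 against clusters 4 to 7, edgeR called 3 of 5 ketone body genes higher and 2 lower, or 60% and 40%, beside 29.1% and 31.4% of all genes. The lower genes were Oxct1 and Bdh1, which use or interconvert ketone bodies, with log2 fold changes of -0.35 and -0.62. Bdh1 was uneven, with 36.6 ± 43.8 CPM in cluster 3 and 47.0 ± 11.6 CPM over the other clusters. Cluster 3 was the higher for Bdh1 in 2 of 7 libraries. Of 8 fatty acid synthesis genes, 3 were higher and 3 lower, or 37.5% each, near the shares of all genes. Me1, the cytosolic malic enzyme, had 259 ± 102 CPM in cluster 3 and 24.6 ± 10.0 CPM over the other clusters (SD, n = 7 each). Scd2, a desaturase, had 3.47 ± 1.37 CPM in cluster 3 and 221 ± 84.5 CPM over the others, a log2 fold change of -5.16. In the macrophage-like cluster 11, against clusters 13 to 15, 4 of 11 uptake, binding and activation genes were higher, or 36.4% beside 11.9% of all genes. Cd36 had 98.7 ± 69.8 CPM in cluster 11 and 8.87 ± 9.30 CPM in the lymphocyte-like clusters. Lpl, lipoprotein lipase, had 170.3 ± 86.2 CPM in cluster 11 and 38.9 ± 17.4 CPM in the lymphocyte-like clusters.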
